A study of Homo sapiens with 8 samples.

Results

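The SUIT2 libraries labelled shScr_4 and shEn1_2.1 stood together and apart from the rest of the series, and these 2 libraries (the pair) were compared with the 4 labelled shScr_1, shScr_2, shEn1_1.2 and shEn1_2.2 (the comparison libraries), out of 8 libraries in all. The pair was chosen by measured values: its libraries were the nearest to each other of any 2, lay at the far end of the first principal component and held the fewest EN1 counts. The grouping crosses the labels, since the pair holds 1 scramble control and 1 EN1 shRNA library and the comparison libraries hold 2 of each. Because the same counts chose the libraries and gave the differences, every difference between the pair and the comparison libraries is a description with no test, and none of them can be read as an effect of an shRNA. The remaining 2 libraries, labelled shScr_3 and shEn1_1.1, entered the expression filter and the scaling but not the rule that called genes. They are given for some genes and in a paragraph of their own, so a gene called here need not be particular to the pair. Values of each set are listed in the order of these names throughout.

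SUIT2 is a human pancreatic ductal adenocarcinoma (PDA) cell line, an established epithelial tumor line that expresses EN1. The cells carried either a scramble shRNA (shScr) or 1 of 2 shRNA constructs against EN1 (shEn1), delivered with a viral vector, so that no library was of cells without a vector, and polyadenylated RNA was sequenced. A shEn1 title gives 2 numbers, taken here as construct and then replicate. The labels do not say which libraries came from separate cultures, which were made on the same day, or whether any comes from a single clone.

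EN1 encodes a homeodomain transcription factor of the engrailed family, known for patterning the developing brain and for the survival of certain neurons. It binds DNA together with PBX cofactors and can repress transcription through TLE corepressors. Epithelial tumor cells hold their shape through adherens junctions, tight junctions, desmosomes and keratin filaments, and a loss of that machinery with a gain of contractile and matrix genes is known as a shift towards a mesenchymal state. EPHA7, the other gene that marks the pair, encodes an EPH receptor tyrosine kinase, a family that reads ephrin ligands on neighboring cells and that is known from axon guidance.

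Depth did not set the pair apart. Its libraries held 35234723 and 36762885 counts, and the other 6 held between 33423590 and 37810604. TMM factors, which scale libraries for differences in RNA composition, were 1.06 and 1.07 in the pair and 0.962 to 1.00 in the other 6. In the pair 17073 and 16756 genes had at least 1 count, against 16090 to 16370 in the comparison libraries. The libraries shScr_3 and shEn1_1.1 had 16695 and 16576 such genes. Genes of the mitochondrial genome took 4.99% to 5.37% of the counts in the pair and 4.52% to 6.45% in the others. The part of these library properties in the differences was not tested.

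The 2 libraries of the pair were more alike than any others. Over 14415 genes with a mean of at least 10 counts, the root mean square difference between shScr_4 and shEn1_2.1 was 0.40 in log2 CPM (CPM, the counts scaled to a common TMM-normalized library size, with a prior count of 2), while within the comparison libraries it was 0.498 to 0.560 and from the pair to the comparison libraries it was 0.806 to 0.868. Of 12823 genes with a mean of at least 1 CPM, 147 differed at least 2-fold within the pair, 221 to 392 did so between comparison libraries, and 1304 to 1443 did so between a library of the pair and a comparison library. No library held the same counts as another.

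**Figure D1:**
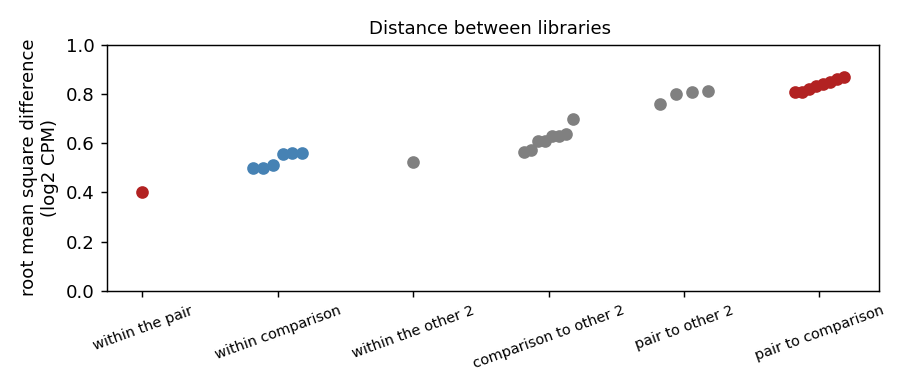
Root mean square difference in log2 CPM between every 2 of the 8 libraries, with 1 point per pairing. The x axis gives the kind of pairing. The pair sits lowest at 0.40, and the 8 pairings of the pair with the comparison libraries reach highest, from 0.806 to 0.868.

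EN1 was lowest in the pair, as the choice of the pair requires. The gene (Entrez 2019) lies at chr2:119599747-119605224 of hg19, minus strand. It had 94 counts in shScr_4 and 53 in shEn1_2.1, against 136, 167, 184 and 218 in shScr_1, shScr_2, shEn1_1.2 and shEn1_2.2 and 172 and 206 in shScr_3 and shEn1_1.1. In CPM this was 2.51 and 1.35 in the pair and 4.1, 4.5, 5.42 and 6.7 in the comparison libraries, in the order just given, a mean log2 difference of -1.44. The labels did not go with the level of the targeted gene, since 3 of the 4 libraries labelled shEn1 held more EN1 counts than any labelled shScr. Within the pair, shEn1_2.1 lay below shScr_4 by 0.87 on the log2 scale.

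EPHA7 had 3 levels over the 8 libraries. Its gene (Entrez 2045) lies at chr6:93949738-94129405 of hg19, minus strand. It measured 36.1 and 43 CPM in shScr_4 and shEn1_2.1 and 3.38, 4.75, 2.86 and 3.6 CPM in the comparison libraries. The libraries labelled shScr_3 and shEn1_1.1 lay between, with 21.9 and 23.2 CPM, nearer to the pair than to the comparison libraries. The mean log2 difference between the pair and the comparison libraries was 3.44, or 10.8-fold, and the nearest libraries of the 2 sides were 7.52-fold apart.

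**Figure D2:**
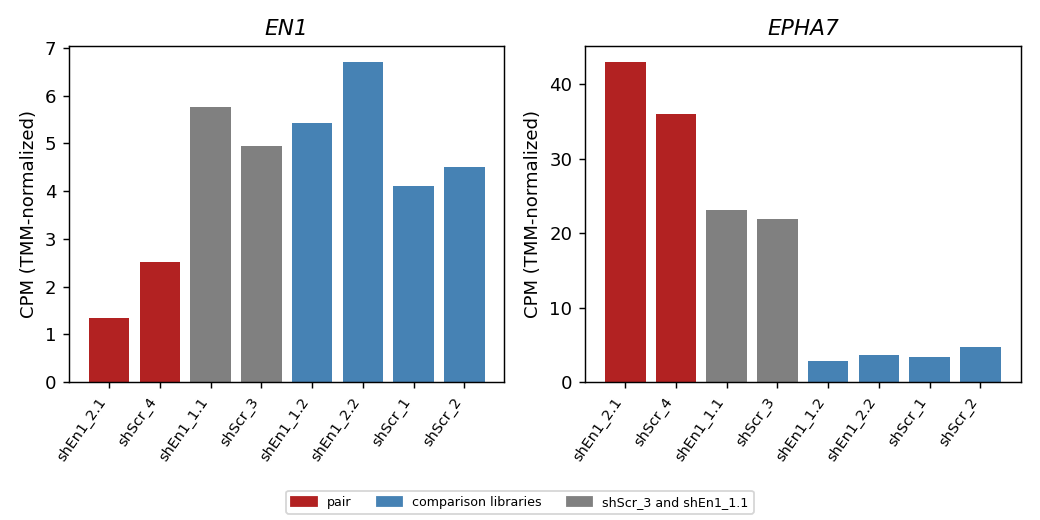
CPM of EN1 and EPHA7 in each of the 8 libraries (y axis, from 0), with 1 bar per library and no error bar because each library is 1 value. The pair (red) holds the least EN1, 2.51 and 1.35 CPM, and the most EPHA7, 36.1 and 43 CPM, and the gray libraries are intermediate for EPHA7 and level with the blue ones for EN1.

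A gene was called set apart when both libraries of the pair lay on the same side of all comparison libraries and the nearest libraries of the 2 sides differed at least 1.5-fold. By this rule 801 of 14415 genes were higher in the pair (5.56%) and 739 were lower (5.13%). The libraries were grouped by these same values, so nothing is read from these shares. A gap of at least 2-fold was met by 395 of the genes higher in the pair and 330 of those lower. The median size of the log2 difference was 1.54 for the genes higher in the pair and 1.36 for those lower, and the median of all genes was 0.0022. Scaled by library size alone, without TMM, 1071 genes were set apart higher and 562 lower, with the median of all genes shifted by 0.13. Genes higher in the pair had a median of 0.769 CPM per kb of transcript over the 8 libraries. It was 6.47 CPM per kb for the genes lower in the pair and 6.45 CPM per kb for all genes. The filter took the mean of all 8 libraries, so a gene near 0 elsewhere could pass through the pair's counts alone. With at least 10 counts required in every library, 597 of 13157 genes were set apart higher and 636 lower. At the limit of the rule, ETV5 was called (120.1 and 115 CPM in the pair and 66.5 to 76.3 CPM in the comparison libraries) and OSCP1 was not (4.46 and 4.37 CPM and 1.71 to 2.89 CPM). On the lower side SAPCD2 was called (160.0 and 149 CPM and 240.1 to 301 CPM) and SLCO3A1 was not (65.5 and 62.1 CPM and 98.3 to 126 CPM).

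The labels cut across these genes. Between the 4 libraries labelled shEn1 and the 4 labelled shScr, edgeR's quasi-likelihood test called 0 of 14415 genes (0%) at an adjusted p below 0.05 and 49 at an unadjusted p below 0.05, DESeq2 called 2 genes and limma-voom called 0. Of the genes set apart, 1 of the 801 higher in the pair and 0 of the 739 lower were among those 49. EPHA7 had a log2 fold change of 0.14 and EN1 of 0.26 between the labels, both with an adjusted p of 1.00 in edgeR's test. Each label has 1 library in the pair, so the spread within a label contains the whole difference between the pair and the comparison libraries.

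The genes with the widest gap above the comparison libraries included signaling proteins, transporters and a cytoskeletal protein. RGS4, a GTPase-activating protein that switches off G protein signaling, measured 42.7 and 43.5 CPM in shScr_4 and shEn1_2.1 and 1.99, 1.46, 1.53 and 1.23 CPM in the comparison libraries, a 27.2-fold difference. FLNC, the actin crosslinker filamin C, measured 62.3 and 65.4 CPM against 3.19, 2.18, 4.36 and 4.83 CPM. For both genes the pair's libraries lay close together and far above every comparison library. SLC2A3, the glucose transporter GLUT3, measured 6.67 and 8.4 CPM in the pair and 0.301, 0.216, 0.0589 and 0 CPM in the comparison libraries, where shEn1_2.2 had no count. NEGR1, a neuronal adhesion molecule, measured 3.63 and 5.2 CPM against 0.121, 0.108, 0.0589 and 0.0615 CPM. The comparison libraries held 2 to 4 counts of NEGR1, so it passed the filter through the pair's counts. RRAGD, a Rag GTPase that brings mTORC1 to the lysosome, measured 9.45 and 13.7 CPM against 0.603, 0.485, 0.442 and 0.369 CPM. Another receptor tyrosine kinase was in this group, ERBB4, with 4.51 and 4.32 CPM in the pair and 0.422, 0.0539, 0.324 and 0.277 CPM in the comparison libraries. It had 14, 2, 11 and 9 counts there and 26 and 6 in shScr_3 and shEn1_1.1, so it also passed the filter only through the pair's counts. Others among the 12 with the widest gaps were SLC16A14, TMEM98, APLP1 and ARMH4, with log2 differences of 3.38 to 3.75.

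The genes with the widest gap below the comparison libraries included secreted and intracellular enzymes, membrane proteins and a kinase. MMP1, the interstitial collagenase, measured 343 and 383 CPM in the pair and 3000.1, 2934, 2593 and 2557 CPM in the comparison libraries, a 7.62-fold difference between high levels. GAL3ST1, the sulfotransferase that makes sulfatide, measured 0.480 and 0.228 CPM in the pair and 9.19, 18.2, 9.33 and 15.7 CPM in the comparison libraries. GPX2, the glutathione peroxidase of the gut epithelium, measured 3.52 and 1.83 CPM against 37.3, 42.3, 34.9 and 44.6 CPM. The nearest libraries of the 2 sides were 6.68-fold apart in MMP1, 17.2-fold in GAL3ST1 and 9.78-fold in GPX2. STEAP1, a membrane protein of the cell surface, measured 2.75 and 2.67 CPM against 25.8, 36.1, 22.8 and 30.5 CPM. SYK, a nonreceptor tyrosine kinase, measured 7.44 and 6.8 CPM against 59, 51.7, 68 and 48 CPM. CALB2, the calcium-binding protein calretinin, measured 12.2 and 10.8 CPM against 111, 94.5, 114 and 98.4 CPM. The others were AKR1B10, an aldo-keto reductase, GGT1, a glutathione-degrading enzyme, AZGP1, SLC37A2, the membrane protease TMPRSS4 and LRG1, with log2 differences of -4.33 to -3.11. AKR1B10 and GGT1 have near-identical copies in the genome, so their reads may have been split among these.

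**Figure D3:**
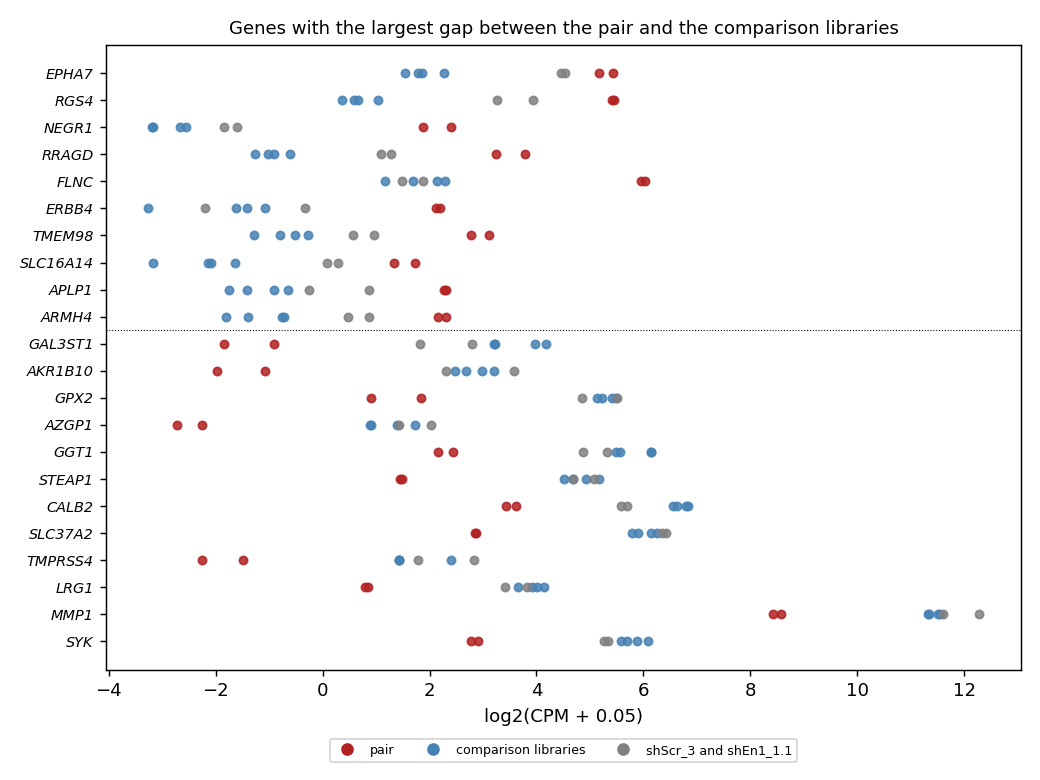
Level of the genes with the widest gap between the pair and the comparison libraries that had a count in every library, as log2(CPM + 0.05) (x axis), with 1 point per library and the genes in rows. Above the dotted line the red points of the pair lie to the right of all blue points of the comparison libraries, below it to their left, and the gray points of shScr_3 and shEn1_1.1 lie between them, among the blue or beyond the blue.

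Genes of epithelial cell contacts lay lower in the pair. Of 29 measured genes of epithelial junctions, 11 were set apart below the comparison libraries and 0 above, with a median log2 difference of -0.66. Over all genes, 5.13% were set apart below and 5.56% above, and the counts of every later list stand beside these shares. CDH1, the E-cadherin of adherens junctions, measured 124 and 103 CPM in the pair and 230.1, 225, 241 and 257 CPM in the comparison libraries. EPCAM, an epithelial adhesion molecule, measured 234 and 241 CPM and 549, 589, 546 and 525 CPM. The tight junction claudin CLDN7 had the widest gap of the list, at 25.8 and 18.1 CPM and 120.1, 121, 112 and 149 CPM. The list also held CLDN2, CLDN4, TJP3, MARVELD3 and the desmosome genes DSG2, PKP2, PKP3 and JUP among the 11. TJP1, the scaffold ZO-1, was not set apart, with 191 and 202 CPM in the pair and 204 to 228 CPM in the comparison libraries.

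Factors that keep cells epithelial lay on the same side. Of 19 epithelial regulators, 8 were set apart below the comparison libraries and 0 above, with a median of -0.88. ESRP1, a splicing factor for epithelial isoforms, measured 66.3 and 65.3 CPM in the pair and 131, 179.9, 129 and 148 CPM in the comparison libraries, and the transcription factor EHF measured 72.7 and 68.3 CPM and 169.6, 300.0, 144 and 224 CPM. KLF4, RAB25 and the membrane proteases ST14 and PRSS8 were also set apart below. CDH1, already counted among the junction genes, was 1 of the 8 as well. GRHL2, a regulator of epithelial junction genes, was not, with 75.1 and 71.8 CPM in the pair and 88.7 to 97.4 CPM in the comparison libraries. Of 9 keratins, 5 were lower and 0 higher, with a median of -1.16. KRT7, a keratin of duct epithelium, measured 198 and 192 CPM in the pair and 1057, 847, 1080.2 and 916 CPM in the comparison libraries, and KRT19 measured 400.1 and 321 CPM and 1092, 1456, 1040.5 and 1649 CPM. KRT8 and KRT18, the keratins of simple epithelia, were abundant in every library and not set apart: KRT8 measured 6482 and 6362 CPM in the pair and 7247 to 9579 CPM in the comparison libraries.

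Secreted and surface products of duct and gut epithelium, and factors of the pancreatic lineage, followed. Of 14 measured mucins and ductal products, 7 were lower and 1 higher, with a median of -1.67. LCN2, a secreted iron-scavenging protein, measured 5.42 and 4.75 CPM in the pair and 18.2, 85.6, 14.2 and 85.5 CPM in the comparison libraries, where the levels themselves fell into 2 ranges. AGR2, an endoplasmic reticulum protein needed for mucin folding, measured 6.86 and 6.88 CPM and 40.6, 64.1, 32 and 37.9 CPM. CEACAM6, CEACAM1, TSPAN8, CTSE and the chloride channel CFTR were the other members below. The exception was the trefoil peptide TFF2, which was higher in the pair at 3.82 and 3.35 CPM against 0.121, 0.485, 0.353 and 0.492 CPM. Of 16 lineage factors, 5 were lower and 0 higher, with a median of -0.41. They included HNF4A, FOXA2, FOXA3 and ONECUT3, transcription factors of endoderm and its organs, and HNF4A measured 14.4 and 14.9 CPM in the pair and 39.7, 41.2, 37.3 and 47.8 CPM in the comparison libraries. GATA6 and PDX1 were not set apart, and PDX1 overlapped, with 17.5 and 14 CPM in the pair and 15.6 to 21.8 CPM in the comparison libraries.

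Mesenchymal genes split. Of 17 measured, 5 were higher (FN1, ZEB1, CALD1, ACTA2, MYL9) and 4 lower (SNAI2, TGFBI, LOXL2, S100A4), with a median of 0.69. ZEB1, a repressor of E-cadherin, measured 20.2 and 23.6 CPM in the pair and 10.1, 10.4, 10.3 and 9.41 CPM in the comparison libraries. SNAI2, another repressor of the same gene, lay the other way, at 1.44 and 1.62 CPM and 7.62, 6.85, 8.86 and 8.12 CPM. Genes of the contractile machinery were among those higher in the pair: ACTA2, smooth muscle actin, measured 15.4 and 13.4 CPM against 4.61, 2.13, 3.06 and 2.18 CPM, and CALD1, the actin-binding caldesmon, 7.47 and 6.5 CPM against 1.21, 1.02, 0.706 and 1.17 CPM. VIM, the intermediate filament vimentin, did not meet the 1.5-fold gap, with 2239.8 and 2480.3 CPM against 1759.5, 1123, 1917 and 1218 CPM. FN1, fibronectin, was set apart at a very low level, 1.41 and 2.21 CPM against 0.331, 0.485, 0.824 and 0.461 CPM.

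Contacts with the matrix also went both ways. Of 15 laminin and hemidesmosome genes, 5 were lower (LAMA3, LAMA4, COL17A1 and ITGA6 among them) and 0 higher, with a median of -0.46, which was -0.13 without shEn1_2.1 and -0.27 without shEn1_1.2. LAMA3, a chain of the epithelial laminin of basement membranes, measured 277 and 327 CPM in the pair and 849, 647, 815 and 615 CPM in the comparison libraries, and COL17A1, a collagen of hemidesmosomes, 181 and 173 CPM and 410.1, 581, 400.4 and 641 CPM. Among 19 integrin subunits ITGA2, ITGA6 and ITGB6 were lower, and ITGA5 and ITGA7 higher. ITGA6, which with its partner subunit binds laminin in hemidesmosomes, measured 518 and 562 CPM against 1219, 1184, 1263 and 1197 CPM. ITGA5, the fibronectin receptor subunit, measured 51.6 and 49.5 CPM against 27.2, 23.8, 27.6 and 28.2 CPM. Of 20 collagen and matrix genes, 5 were higher (COL4A5, COL5A1, COL6A2, COL12A1, FN1) and 3 lower (COL7A1, COL13A1, THBS2), with a median of 0.23, which was 0.46 without shEn1_2.1, 0.12 without shScr_4 and 0.10 without shScr_2. Of 17 matrix proteases, plasminogen activators and their inhibitors, 5 were lower and 2 higher, and beside MMP1 the lower ones were MMP7, MMP14, MMP15 and the protease inhibitor SERPINE2.

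EPH receptors and ephrins were divided by member. Of 17 measured, EPHA7, EPHB3 and EFNB3 were higher and EPHA1, EPHB2, EPHB6 and EFNB1 lower, with a median of -0.23, which was -0.12 without shEn1_2.2. EPHB6, a receptor without kinase activity, measured 22.7 and 26.9 CPM in the pair and 152, 124, 171 and 152 CPM in the comparison libraries, and EFNB1, a transmembrane ligand, 20.2 and 20.7 CPM and 47.4, 52.8, 48.3 and 64.1 CPM. EFNB3, the ligand that was higher, measured 2.29 and 2.23 CPM against 0.301, 0.405, 0.177 and 0.369 CPM. EPHA2, a receptor often studied in carcinoma, lay above the comparison libraries in both libraries but under the 1.5-fold gap, with 885 and 895 CPM against 589.7, 494, 605 and 594 CPM. In the related axon guidance list 4 of 29 were higher (SEMA3E, SEMA6A, NTN1, NEO1) and 5 lower (SEMA3A, SEMA7A, PLXNA2, NRP2, UNC5B). NTN1, the secreted guidance cue netrin, measured 20.9 and 21.7 CPM against 4.58, 2.02, 5.03 and 4.89 CPM, and its receptor UNC5B 3.98 and 3.43 CPM against 15.1, 26.9, 16.2 and 25.7 CPM, so that ligand and receptor lay on opposite sides.

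Receptor and growth pathways had members on either side. Among 15 genes of EN1, its cofactors and proteins related to them, PBXIP1 and TLE4 were higher and EN1 and TLE5 lower. PBXIP1, which binds PBX proteins, measured 29.9 and 27.8 CPM against 5.73, 8.23, 6.65 and 6.52 CPM. PBX3, a DNA-binding partner of the PBX family, was not set apart, with 17.1 and 16.9 CPM in the pair and 12.9 to 15.6 CPM in the comparison libraries. Of 16 ERBB receptors and ligands and related receptors, ERBB4, HBEGF and GAS6 were higher and the EGFR ligand AREG lower. ERBB4 passed the filter only through the pair's counts. Feedback and output genes of ERK signaling had 4 of 24 higher (DUSP8, SPRY1, ETV5, EGR1) and 1 lower (IER3), with a median of 0.15, which was 0.005 without shScr_2 and 0.02 without shEn1_2.2. EGR1, an immediate early transcription factor, measured 44.3 and 58.4 CPM in the pair and 25.5, 17.4, 21.3 and 22 CPM in the comparison libraries. DUSP6, the phosphatase that is induced by ERK and acts on it, did not differ in this way, with 49.6 and 57.1 CPM in the pair and 44.1 to 63.3 CPM in the comparison libraries. In the MYC network 2 of 12 were higher and 0 lower: MXD4, which competes with MYC for MAX, at 35.9 and 32.1 CPM against 8.44, 9.49, 8.15 and 7.99 CPM, and MYCL. MYC itself measured 96.5 and 105 CPM in the pair and 127 to 155 CPM in the comparison libraries, and was not set apart.

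Developmental signaling was mixed as well. In the Notch list of 20, JAG2, HEYL, NEURL1B and DTX3 were higher and JAG1, MAML2 and LFNG lower, so that the 2 Jagged ligands lay on opposite sides: JAG1 measured 14.3 and 14.1 CPM in the pair and 35.7, 28.7, 43.3 and 37.3 CPM in the comparison libraries, and JAG2 15.4 and 12.7 CPM and 4.43, 5.12, 7.62 and 6.98 CPM. In the WNT list of 28, the receptor FZD2, TCF7L1 and NKD1 were higher and the ligands WNT7A, WNT7B and WNT10A and the receptor FZD5 lower. TCF7L1 and NKD1, with 2 to 7 and 6 to 10 counts in the comparison libraries, passed the filter only through the pair's counts. In the TGF-beta list of 24, the receptor TGFBR2 and LTBP1 were higher, and the ligands BMP2, BMP4 and BMP7 and the BMP target ID1 lower. TGFBR2 measured 367 and 364 CPM against 193, 202, 183 and 179 CPM, while BMP4 measured 47 and 38.2 CPM against 124, 124, 128 and 131 CPM. Of 28 YAP-TEAD factors and targets, LATS2 and ARHGEF17 were higher and F3, NT5E and DLC1 lower. These were 7.14% and 10.7%, beside 5.56% and 5.13% of all genes.

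Metabolic and stress genes were measured in 3 lists. Of 24 targets of NRF2, the regulator of the antioxidant response, 5 were lower (GCLC, TXNRD1, AKR1B10, SLC7A11, FTH1) and 0 higher, with a median of -0.33, which was -0.22 without shScr_1. SLC7A11, the cystine importer, measured 9.05 and 13.9 CPM in the pair and 73.6, 30.5, 80.9 and 29 CPM in the comparison libraries, where its level varied widely, and TXNRD1, thioredoxin reductase, 493 and 531 CPM and 1127, 933, 1062 and 813 CPM. NQO1 and HMOX1, other well-known targets, were not set apart, and NQO1 overlapped, with 378 and 362 CPM in the pair and 351 to 579 CPM in the comparison libraries. Of 28 hypoxia and glycolysis genes, SLC2A3, ADM, ENO2 and ALDOC were higher and NDRG1 and EGLN3 lower. ADM, the vasodilator adrenomedullin, measured 86.5 and 93.3 CPM against 18.3, 11.2, 17.9 and 14 CPM, whereas LDHA, lactate dehydrogenase, measured 1741 and 1729 CPM against 2535 to 3049 CPM and lay below the comparison libraries without meeting the gap. Of 30 genes of cholesterol and fatty acid synthesis 25 had a log2 difference below 0, but 2 of the list were set apart lower, among them ELOVL6, which lengthens fatty acids (19.7 and 18.8 CPM against 47.1, 62.1, 44.6 and 44.7 CPM), and TM7SF2 was set apart higher. The 6.67% lower and 3.33% higher of this list were near the shares over all genes, 5.13% and 5.56%. Over all 14415 genes, 7167 had a log2 difference below 0.

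Genes of growth and of basic cell functions were counted in the same way. None of 32 S phase and mitosis genes, 21 caspases and death receptors, 28 proteasome subunits, 38 nuclear-encoded respiratory chain genes and 41 cytosolic ribosomal proteins was set apart in either direction. MKI67, a proliferation marker, measured 664 and 726 CPM in the pair and 674 to 794 CPM in the comparison libraries. Of 25 genes of ribosome biogenesis, 24 had a log2 difference below 0 and 1, NOLC1, was set apart lower. Of the 41 cytosolic ribosomal proteins 37 lay below 0, with a median of -0.23. Over all 14415 genes, 7167 lay below 0. Among 35 interferon-stimulated genes IFI6 and STAT2 were higher and OAS1 lower. These were 5.71% and 2.86%, beside 5.56% and 5.13% of all genes. In the BCL2 family of 16, BCL2L11 and BNIP3L were higher and BIK lower. For the G1 cyclins and CDK inhibitors CDKN2D was higher and CDK6 lower, of 13 measured.

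**Figure D4:**
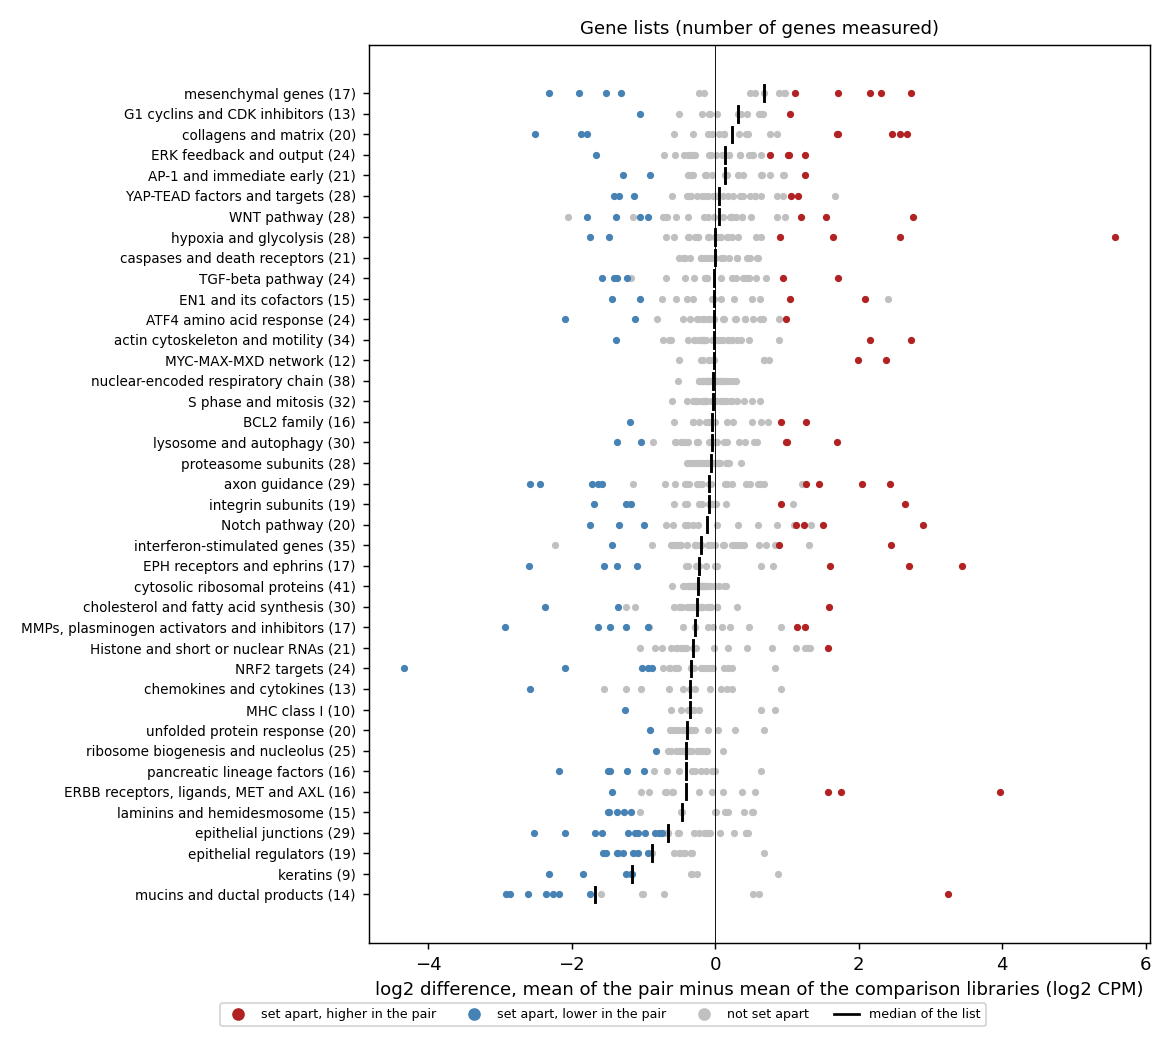
Log2 difference between the mean of the pair and the mean of the comparison libraries (x axis) for every measured gene of each list with at least 9 measured genes, with 1 point per gene, a black bar at the list's median, and the number of genes in parentheses. Epithelial lists have medians of -0.66 to -1.67 with red points absent but for TFF2, and the lists of cell division, proteasome and respiratory chain are gray throughout.

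Markers were measured to see what cells the libraries held. The summed level of 6 markers of SUIT2 epithelium (KRT7, KRT8, KRT18, KRT19, EPCAM, CDH1) was 11434 to 11691 CPM in the pair, 14924 to 18558 CPM in the comparison libraries and 11671 to 11982 CPM in the other 2, and 4 of the 6 were set apart lower. These 4 (KRT7, KRT19, EPCAM, CDH1) were already counted in the lists above. Of 9 fibroblast markers, DCN, LUM, COL1A2, COL3A1 and POSTN had no count in any library, and the sum was 1.71 to 2.41 CPM in the pair and 1.17 to 1.86 CPM in the comparison libraries. Endothelial CDH5, KDR and TEK were at 0 in all libraries, as were the acinar and islet genes CPA1, PNLIP, AMY2A, INS, GCG and SST and the immune genes PTPRC, CD3E, MS4A1 and FCGR3A. CD68, a lysosomal protein of macrophages and the immune marker with the most counts, measured 8.38 and 7.74 CPM in the pair and 23.8, 22.7, 24.1 and 16.7 CPM in the comparison libraries. The sum of the 8 immune markers was 8.43 to 9.66 CPM in the pair, 20.05 to 24.8 CPM in the comparison libraries and 29.2 to 35.4 CPM in the other 2. CD14, a surface protein of monocytes, lay the other way, with 34 and 11 counts in the pair and 0 to 4 in the comparison libraries. Bulk RNA cannot tell fewer cells of a kind from less RNA per cell, and the part of these markers in the differences was not tested.

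The libraries labelled shScr_3 and shEn1_1.1 lay mostly between the pair and the comparison libraries or with the comparison libraries. Of the 801 genes higher in the pair, shScr_3 reached the pair's level in 8.49%, lay between in 54.6% and lay with the comparison libraries in 37%. For the 739 genes lower in the pair these shares were 2.03%, 37.2% and 60.8%. In shEn1_1.1 the shares were 5.62%, 43.9% and 50.4% of the genes higher in the pair, and 2.57%, 43.3% and 54.1% of those lower. Both libraries reached the pair's level in 19 and 7 genes, and both lay with the comparison libraries in 222 and 310. RGS4 was an intermediate case, with 9.53 and 15.3 CPM in shScr_3 and shEn1_1.1 against 42.7 and 43.5 CPM in the pair. FLNC lay with the comparison libraries, at 3.62 and 2.74 CPM. STAT2, a transcription factor of interferon signaling, was at the pair's level in both, with 39.3 and 33.9 CPM against 33.4 and 31.2 CPM in the pair and 16.6 to 18.4 CPM in the comparison libraries. ITGA6 lay nearer to the pair in both, with 570 and 646 CPM. MXD4 and AREG reached the pair's level in shScr_3, with 37.5 and 9.1 CPM, and lay between in shEn1_1.1, with 22.4 and 12.8 CPM. EN1 lay with the comparison libraries in both.

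**Figure D5:**
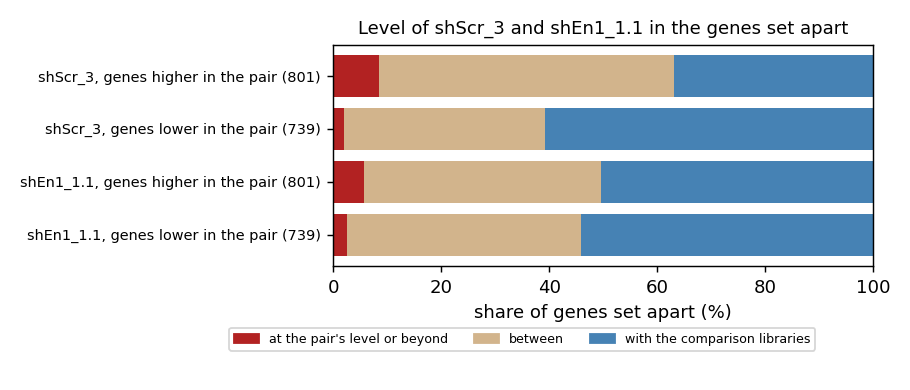
Share of the genes set apart (x axis, percent) for which shScr_3 or shEn1_1.1, which were not part of the gap rule, lay at the pair's level or beyond (red), between the pair and the comparison libraries (tan) or within the comparison libraries or beyond (blue). Red takes 2.03% to 8.49% of each bar and blue 37% to 60.8%.

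The libraries of the pair were also compared with each other. Of the 12823 genes, 57 were at least 2-fold higher and 90 at least 2-fold lower in shEn1_2.1 than in shScr_4. Of these 147 genes 26 were set apart, as were 1273 of all 12823. The 3 genes with the largest difference in each direction were named after their values were seen. PNRC2 had 14 counts in shScr_4 and 353 in shEn1_2.1, and DDX39B had 12 and 239, while no other library passed 35 counts for either. CUTA had 1566 counts in shScr_4, 74 in shEn1_2.1 and 53 to 153 elsewhere. SRSF10, the neighbor of PNRC2 on the opposite strand of chromosome 1, had 529 counts in shScr_4, 29 in shEn1_2.1 and 618 in shScr_1. In hg19 PNRC2 ends at 24289952 and SRSF10 starts at 24290837, so they do not overlap at these positions. The strand setting of the counting was not given in the sources used here, and whether reads of these neighbors were shared was not tested. Nor was it tested how the assignment of reads bears on the counts of DDX39B and CUTA. GOLGA7B and TXK completed the 6, and GOLGA7B was also set apart lower, with 0.107 and 0.838 CPM in the pair and 2.2, 2.35, 3.09 and 2.15 CPM in the comparison libraries.

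The genes set apart were spread over the genome. By chromosome, with positions from hg19, the share of genes higher in the pair was 2.87% (chromosome 18) to 7.83% (X) and the share lower was 2.96% (chromosome 15) to 7.63% (chromosome 20). The median log2 difference of a chromosome lay between -0.10 (chromosome 4) and 0.12 (chromosome 19). The median transcript length was 4231 bases for genes higher in the pair, 3670 for those lower and 3751 for all, and their median GC content was 53.1%, 51.9% and 48.2%.

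Promoters of the genes set apart were searched for the core letters of 4 factors, on both strands and over 250 bases before and 50 after the first start listed by RefSeq (GRCh38.p14). A promoter was found for 604 of the 801 genes higher in the pair, 517 of the 739 lower and 10972 of all genes tested. TAATTA, the core bound by engrailed-class homeodomains, was in 1.16% of the promoters of genes higher in the pair, 1.55% of those lower, 1.80% of all tested and 4.98% of the 27305 in the RefSeq table. CACGTG, the E-box of MYC, MAX and MXD proteins, was in 8.94%, 6.96%, 10.1% and 7.43%. TGAGTCA, the AP-1 motif, was in 2.98%, 5.80%, 3.03% and 4.92%, and GGGCGG, the GC box of SP1, in 72.2%, 65.2%, 70.0% and 44.6%. TAATTA and CACGTG are palindromes, and no motif overlaps another by its letters. A match describes the letters only and shows no binding. Promoters of 4 genes described above are printed 5′ to 3′ over the 250 bases before the start, to show the marker gene, the E-box once in a gene higher and once in a gene lower in the pair, and the AP-1 letters in a gene lower in the pair; capitals mark the motif. EPHA7 (chr6:93419560-93419809, minus strand) held none of the first 3 motifs there. MXD4 (chr4:2262110-2262359, minus strand) and ITGA6 (chr2:172427086-172427335, plus strand) held CACGTG starting 238 and 101 bases before the start, and F3 (chr1:94541760-94542009, minus strand), which encodes tissue factor and measured 12 and 12.1 CPM in the pair and 38.1, 27.2, 31.5 and 26.9 CPM in the comparison libraries, held TGAGTCA 210 bases before it.
EPHA7: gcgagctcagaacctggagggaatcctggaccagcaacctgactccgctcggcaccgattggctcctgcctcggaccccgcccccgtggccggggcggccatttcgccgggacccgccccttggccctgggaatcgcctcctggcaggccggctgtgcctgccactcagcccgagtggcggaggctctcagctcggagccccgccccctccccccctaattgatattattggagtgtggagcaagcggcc
MXD4: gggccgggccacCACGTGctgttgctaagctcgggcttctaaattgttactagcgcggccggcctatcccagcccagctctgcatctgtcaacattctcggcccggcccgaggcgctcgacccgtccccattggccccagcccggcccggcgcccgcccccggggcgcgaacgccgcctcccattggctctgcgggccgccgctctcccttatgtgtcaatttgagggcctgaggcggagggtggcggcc
ITGA6: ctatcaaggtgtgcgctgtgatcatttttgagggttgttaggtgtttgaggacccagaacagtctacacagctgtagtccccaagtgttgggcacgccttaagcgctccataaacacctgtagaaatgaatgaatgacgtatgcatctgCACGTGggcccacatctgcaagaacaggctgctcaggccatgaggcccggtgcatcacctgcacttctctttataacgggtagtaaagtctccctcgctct
F3: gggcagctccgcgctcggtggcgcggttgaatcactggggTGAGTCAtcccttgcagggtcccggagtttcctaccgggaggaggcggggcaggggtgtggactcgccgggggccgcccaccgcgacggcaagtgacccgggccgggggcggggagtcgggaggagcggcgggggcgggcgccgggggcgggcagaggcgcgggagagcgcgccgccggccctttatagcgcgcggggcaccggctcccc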

How the data were processed

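RNA of SUIT2 cells was sequenced in 8 libraries, grouped by their labels (4 shScr, 2 of each shEn1 construct). The values deposited by the authors are raw counts (whole numbers, 1 per gene and library), made by HISAT2 alignment and featureCounts. The paper's methods name hg19, while the submitters' processing notes list mm9. The identifiers are human Entrez genes, and 23696 of 25702 were matched to a RefSeq symbol. Annotation and strand setting were not given in the sources used here. From the counts, 14415 genes with a mean of at least 10 were kept, scaled with TMM and expressed as CPM or log2 CPM (prior count 2) with edgeR 4.0.16 in R 4.3.3. The pair was selected on these values, so its differences were described by library values, the mean log2 difference and the gap between nearest libraries, with no test. Library totals were 33423590 to 37810604 counts. The labels shEn1 and shScr were compared with the quasi-likelihood F-test of edgeR, adjusted by Benjamini-Hochberg and without a block. DESeq2 1.42.0 and limma-voom (limma 3.58.1) were alternatives, beside other scalings, filters, prior counts, gap limits and leaving out each library. The procedures were run on simulated data with a capped spread between libraries and changes in well-counted genes only. This does not show how they perform on the labels here, where each label holds 1 library of the pair. If the libraries are not separate cultures, p-values measure technical spread.

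The members and the 46 gene lists were chosen with earlier results of these data known. Some genes are in more than 1 list, so the lists are not independent of each other. Genes named are EN1 and EPHA7, the 12 with the widest gap in each direction with a symbol and a mean of at least 1 CPM, and up to 2 members set apart per list and direction; other list members and the genes differing within the pair were named after their values were seen. Gene positions, transcript lengths and GC content are from GENCODE lifted to GRCh37 (a value for 94.4% of genes), promoters from RefSeq. The RNA-seq of organoids and other experiments of the study were not used here. Some genes that the rule or the lists name are not reported here.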

Additional observations from a re-analysis of the deposited data

Results flagged for a closer look

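Among the 4 libraries labelled shScr, shScr_4 lay far from the other 3 in log2 CPM for 14 of the 118 named genes, including FLNC, MMP1, SNAI2 and BMP4, with its gap to the nearest of them taking up most of the group's range (Dixon's limit for 4 values). Among the 4 labelled shEn1, shEn1_2.1 lay far from the other 3 for 23 of the 118, including EN1, AKR1B10, EPHB6 and NTN1. For these genes the distant library was that of the pair every time, which the choice of the pair favors. Over all 14415 genes the share with a distant library was 5.76% for shScr and 6.4% for shEn1, where chance gives about 1 in 20. The library that was distant was shScr_4 in 385 of 830 such genes and shEn1_2.1 in 490 of 922. The TMM factor of shEn1_2.1, 1.07, lay far from those of the other 3 libraries labelled shEn1 by the same measure.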

How the results depend on the processing

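All 118 named genes kept the sign of their log2 difference under every scaling and prior count tried, and so did the 26 of 46 gene lists with a median beyond 0.2. These lists also kept it when 1 library of the pair or of the comparison libraries was left out. The named genes had to keep it then, because in each the whole pair lay beyond all comparison libraries. That gap also left little room for a change of sign under another scaling. The lists with a median beyond 0.2 had little room as well: scaling by library size alone moved the median of all genes only from 0.0022 to 0.13. Of these lists, those of fibroblast, endothelial, and acinar and islet markers held 1 measured gene each and that of immune markers 2. Of the 46 list medians, 32 kept their sign when libraries were scaled by size alone and 35 with upper-quartile factors (906 genes higher and 659 lower). A gap of at least 2-fold gave 725 genes set apart (395 higher, 330 lower), and any gap above 0 gave 7286 (3591 higher, 3695 lower). Leaving out 1 library at a time gave 1682 to 2096 genes (875 to 1102 higher, 805 to 1040 lower), since fewer libraries then have to be on the same side. Between the labels shEn1 and shScr, the count of genes with an adjusted p below 0.05 was 0 to 1 when 1 library was left out. The 1 gene was VAMP7, without shScr replicate 4 (log2 fold change -3.18, edgeR). DESeq2 called 2 genes, VAMP7 (-2.84, adjusted p = 6.46e-05) and the identifier 100507676 (2.52, adjusted p = 0.0187). VAMP7 lies on both X and Y, so its reads may have been split. With the replicate number as a block edgeR called 1 gene (VAMP7, adjusted p = 0.0278). Libraries with the same number had deviations from their group means that correlated by -0.35 to 0.44. The deviations of a construct's 2 libraries mirror each other, so these values cannot tell whether the numbers pair the libraries. With a term for the pair or the comparison libraries, chosen from the values, the 6 libraries gave 1 gene between the labels (RGPD5, adjusted p = 0.0347), a member of a family of near-identical genes. None of these 3 genes was set apart, and the cause of these calls was not tested. Depth limits genes with few counts: EN1 rests on 53 to 218 counts a library.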

Other observations

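Lysosome and autophagy genes were set apart on either side, 10% higher and 6.67% lower, beside 5.56% and 5.13% of all genes. Of 30 measured, GABARAPL1, ULK1 and WIPI1, which act in building autophagosomes, were set apart higher in the pair, and the lysosomal proteases CTSH and CTSS lower. GABARAPL1 measured 24.1 and 21.9 CPM in the pair and 6.84, 8.25, 5.68 and 7.5 CPM in shScr_1, shScr_2, shEn1_1.2 and shEn1_2.2, and CTSH 19.7 and 20.3 CPM and 41.7, 43.7, 39.9 and 39.3 CPM. Of 8 S100 genes, S100A4, S100A6 and S100A16 were lower and 0 higher. S100A6, a calcium-binding protein abundant in epithelial tumor cells, measured 370.4 and 311 CPM in the pair and 731, 677, 609 and 804 CPM in the comparison libraries. Of 20 genes of the unfolded protein response, 17 had a log2 difference below 0 and 1, PDIA4, was set apart lower. Over all 14415 genes, 7167 had a log2 difference below 0.

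The remaining lists are given by their members set apart. Over all genes 5.56% were set apart higher and 5.13% lower. With so few members set apart per list, nothing is read from these counts. Of 24 genes of the ATF4 amino acid response, VLDLR was higher and SLC7A11 and STC2 lower. Of 21 AP-1 and immediate early genes, EGR1 was higher and JUNB and NR4A2 lower. Of 34 genes of the actin cytoskeleton, CALD1 and MYL9 were higher and RHOB lower. ERAP2, which trims peptides for MHC class I, was the member of 10 measured in that list that was set apart, lower, and CXCL3 was the one of 13 chemokines and cytokines. Of 21 histone and short or nuclear RNAs, H2BC21 was higher and 0 were lower.

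The pair was 1 of 4 couples of libraries across the labels. For each library labelled shScr, the library with the fewest genes at least 2-fold apart was one labelled shEn1: shEn1_1.2 for shScr_1 (221 genes), shEn1_2.2 for shScr_2 (222), shEn1_1.1 for shScr_3 (292) and shEn1_2.1 for shScr_4 (147). In the headers of the deposited tables each file carries running dataset numbers, and in each of these couples the numbers of both libraries were 8 apart. What these numbers stand for is not given in the sources used here. EN1 was higher in the shEn1 library in the first 3 couples (5.42 against 4.1 CPM, 6.7 against 4.5 CPM and 5.77 against 4.94 CPM) and lower in the pair (1.35 against 2.51 CPM). These couples were seen in the counts and were not tested.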
